A study of Mus musculus with 23 samples.

Results

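The effect of losing Smad7 in myeloid cells was examined in macrophages of the mouse heart 3 days after the coronary artery was tied off. The comparison takes the 10 day 3 libraries of the 23 in the series, chosen by their genotype and time labels. The 5 MyS7KO libraries came from C57BL/6 mice with both Smad7 alleles flanked by loxP sites (floxed) and with LyzM-Cre. The 5 S7fl/fl libraries came from littermates with the same floxed alleles and no Cre. The hearts of all 10 had a permanent, non-reperfused ligation of the left anterior descending artery. Age is not given in the labels. Cells were sorted on magnetic columns, first to remove cells with the neutrophil antigen Ly6G and then to keep cells with CD11b, and their poly(A) RNA was sequenced. The series also holds baseline hearts without infarction (3 MyS7KO and 3 S7fl/fl libraries) and hearts at day 7 (4 MyS7KO and 3 S7fl/fl libraries). Their values are given mainly where the genotype effect is set beside that at other times. All 23 libraries were in the main statistical fit (edgeR). Those of other times thus share in the low-count filter, the scaling and the spread behind the day 3 p-values.

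Smad7 is an inhibitory Smad. Ligands of the TGF-beta family bind paired type I and type II receptor kinases, which phosphorylate receptor-activated Smads (Smad2 and Smad3 for TGF-beta and activin, Smad1, Smad5 and Smad9 for BMPs), and these enter the nucleus with Smad4. Smad7 is induced by the same signal, occupies the type I receptor and recruits the ubiquitin ligases Smurf1 and Smurf2, so that it acts as feedback. In healing infarcts macrophages clear dead cells, release cytokines and TGF-beta and take part in the change from inflammation to scar formation. LyzM-Cre is a knock-in in which the Cre sequence was placed at the start of the Lyz2 (lysozyme M) coding sequence, which disrupts that allele. It acts in monocytes, macrophages and neutrophils.

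The 5 MyS7KO libraries held 16982136 to 23884938 counts and the 5 S7fl/fl libraries 15479402 to 20471849, and 16545 of 54532 genes were tested. The labels do not say that each library is a separate heart. The p-values thus rest on the spread among these libraries, and how much of it is technical is not known. Genotypes did not stand apart as whole profiles: correlations of log2 CPM (counts scaled to a common library total by TMM) ran from 0.973 to 0.986 between genotypes, from 0.979 to 0.988 within MyS7KO and from 0.976 to 0.985 within S7fl/fl. Macrophage markers were high in both genotypes, with 618 to 827 CPM of Adgre1 (F4/80) in MyS7KO and 667 to 859 CPM in S7fl/fl, and Ly6g was at 0 in all but S7fl/fl replicate 4, which had 0.0635 CPM. Xist was carried by MyS7KO replicates 2, 4 and 5 and S7fl/fl replicates 4 and 5, and Y-linked transcripts by the others. Both sexes are thus present in both genotypes, and the libraries of a genotype did not all come from the same mouse. In 3 libraries the markers of the other sex exceeded 2% of their usual level, namely MyS7KO replicates 2 (2.05%) and 3 (2.62%) and S7fl/fl replicate 4 (8.15%). Without these 3 libraries the Smad7 difference was -1.20 and that of Dyrk2 0.52, against -1.25 and 0.47 with all libraries, and neither was called by edgeR.

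The targeted gene was lower in MyS7KO macrophages but still read. Smad7 stood at 19.9, 10.5, 17.5, 12 and 12.9 CPM in the MyS7KO libraries, against 42, 32.4, 30.4, 34.8 and 34 CPM in the S7fl/fl libraries. The groups did not overlap, with MyS7KO replicate 1 the highest of its group. The means were 14.6 ± 3.98 CPM in MyS7KO and 34.7 ± 4.42 CPM in S7fl/fl (SD, n = 5 each), a log2 difference of -1.25 ± 0.227 (standard error) with a 95% interval of -1.73 to -0.78. The exact two-sided permutation test over the 10 libraries gave p = 0.00794, the smallest it can give. Across all genes the edgeR adjusted p was 0.11, and it was 0.000108 with DESeq2, 0.00298 with limma-voom and 0.00934 when edgeR was fitted to the day 3 libraries alone, while over all 23 alternatives the adjusted p ran from 0.000108 to 1. Without MyS7KO replicate 1 the edgeR adjusted p was 0.0426. The counts cover the whole gene and the labels do not say which part is floxed, so reads outside the deleted part cannot be told apart from reads of cells that kept the gene.

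In edgeR's quasi-likelihood test 2 of the 16545 genes passed an adjusted p of 0.05 (0.0121%), 1 higher and 1 lower (0.00604% each), and both are lysozymes. Lyz1, which encodes the lysozyme best known from Paneth cells, rose, and Lyz2, which encodes the myeloid lysozyme and carries the Cre, fell. Lyz1 read 76, 63.5, 93.3, 58.6 and 83.9 CPM in MyS7KO and 10.7, 11.6, 10.3, 9.9 and 9.31 CPM in S7fl/fl. Every MyS7KO library was above every S7fl/fl library. The means were 75.1 ± 14.3 CPM in MyS7KO and 10.4 ± 0.854 CPM in S7fl/fl (SD, n = 5 each), 7.24-fold higher (log2 2.86 ± 0.215, edgeR adjusted p = 2.78e-07). Lyz2 read 3210, 3090, 2820, 3230 and 3290 CPM in MyS7KO and 5260, 6550, 6360, 6080 and 5270 CPM in S7fl/fl. Again the groups were apart, and the MyS7KO libraries lay close together. Lyz2 fell by 0.92 ± 0.112 on the log2 scale (edgeR adjusted p = 0.000229). Without the 3 libraries of mixed sex signal the Lyz2 difference was -0.84 and no longer called (edgeR adjusted p = 0.0817). It was -0.83 within the libraries that carry Xist and -1.01 within those that carry Y-linked transcripts, with edgeR adjusted p of 0.515 and 0.175. Calls were made for 0.0302% of genes with DESeq2, 0.0242% with limma-voom and also without MyS7KO replicate 1, 0.0216% with the day 3 libraries alone, 0.0288% with a replicate block, 0.0182% without S7fl/fl replicate 1, 0.00607% without the mixed libraries, 0.00604% within either sex and 0.00602% with no low-count filter.

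Per length, Lyz2 remained far above Lyz1 in both genotypes. In the authors' deposited FPKM, Lyz1 averaged 59.4 ± 11.9 in MyS7KO and 8.08 ± 0.638 in S7fl/fl, and Lyz2 averaged 2370 ± 136 in MyS7KO and 4420 ± 449 in S7fl/fl (SD, n = 5 each). The genes are neighbours on the minus strand of chromosome 10 of GRCm38, Lyz2 at chr10:117277331-117282321 and Lyz1 at chr10:117287797-117292868, and are close copies, so the sequences are shown for what tells their reads apart. The 444 coding bases differ at 22 places, and 14 of these lie in the coding part of the first exon, 136 bases, printed here from GENCODE M21 on the transcript strand with the differing bases in capitals. It spans chr10:117292703-117292838 for Lyz1 and chr10:117282107-117282242 for Lyz2.
Lyz1: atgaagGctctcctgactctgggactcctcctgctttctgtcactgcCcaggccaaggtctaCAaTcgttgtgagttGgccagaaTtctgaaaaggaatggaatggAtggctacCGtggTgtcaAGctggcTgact
Lyz2: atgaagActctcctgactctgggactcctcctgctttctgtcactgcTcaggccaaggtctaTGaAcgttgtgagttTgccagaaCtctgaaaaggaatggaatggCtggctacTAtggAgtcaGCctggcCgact
The longest run that the 2 whole transcripts share is 118 bases, and none of the 1114 windows of 150 bases, the read length, in the Lyz1 transcript occurs in the Lyz2 transcript. How the submitters treated mismatches and reads with more than 1 match is not given in the sources used here. Assignment of reads between these genes was not tested.

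**Figure D1:**
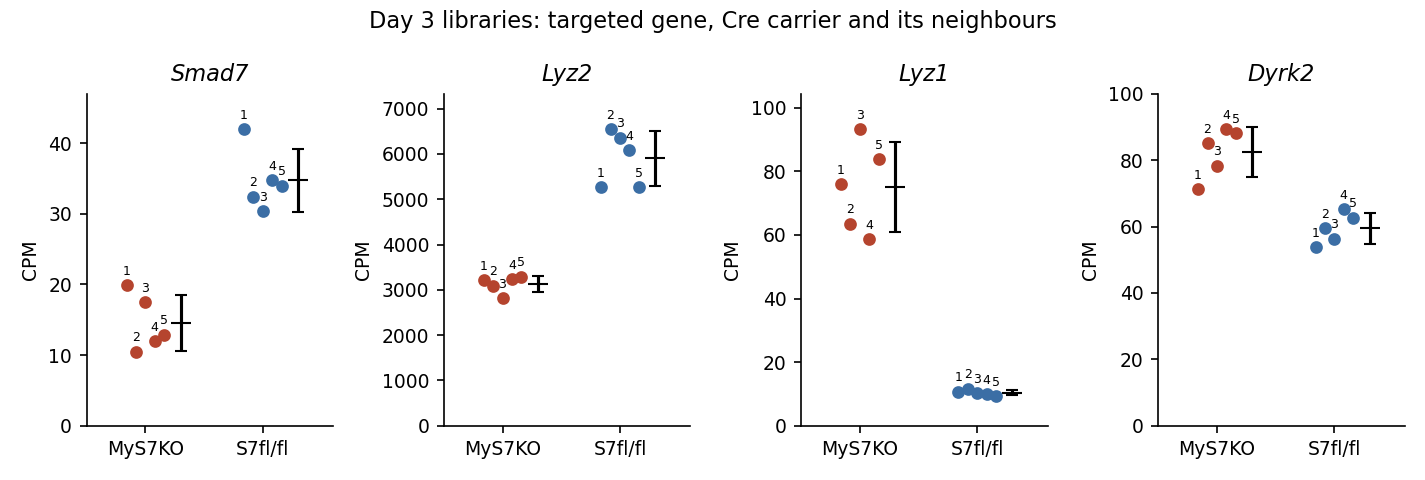
CPM of Smad7, Lyz2, Lyz1 and Dyrk2 in each day 3 library, MyS7KO left and S7fl/fl right, with replicate numbers and the mean ± SD of 5 libraries as bars. In each panel the groups do not overlap, with Smad7 and Lyz2 lower and Lyz1 and Dyrk2 higher in MyS7KO.

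Next in rank was Dyrk2, a kinase of the DYRK family that acts in p53 signalling and protein degradation, which also lies on chromosome 10, 1583 kb from Lyz2. It read 71.2, 85.1, 78.4, 89.4 and 88.2 CPM in MyS7KO and 53.8, 59.6, 56.3, 65.2 and 62.7 CPM in S7fl/fl. The groups did not overlap. The 1.39-fold higher mean (log2 0.47 ± 0.0902) had an edgeR adjusted p of 0.11. DESeq2 called it (adjusted p = 0.00367), as did limma-voom (0.00298) and edgeR without MyS7KO replicate 1 (adjusted p = 0.0426). Over all 23 alternatives its adjusted p ran from 0.00298 to 1. Among 52 tested genes within 5 Mb of Lyz2, 5 had an unadjusted edgeR p under 0.05 (9.62%). The share was 3.79% on chromosome 10 and 3.59% over all genes tested. Of these 5 genes, 3 are Lyz1, Lyz2 and Dyrk2, which prompted the look at this region, so the regional share includes the genes that led to it. The other 2 are Tbc1d30, a Rab GTPase-activating protein 4028 kb away that read 6.66 to 9.3 CPM in MyS7KO and 10.2 to 16.5 CPM in S7fl/fl with an edgeR adjusted p of 0.982 (log2 -0.71 ± 0.185), and Tbk1, a kinase that activates interferon regulatory factors (log2 -0.18 ± 0.0855, edgeR adjusted p = 0.982). The Cre allele and Smad7 loss occur in the same libraries, mice with Cre and no floxed Smad7 were not analysed here, and their effects cannot be told apart.

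**Figure D2:**
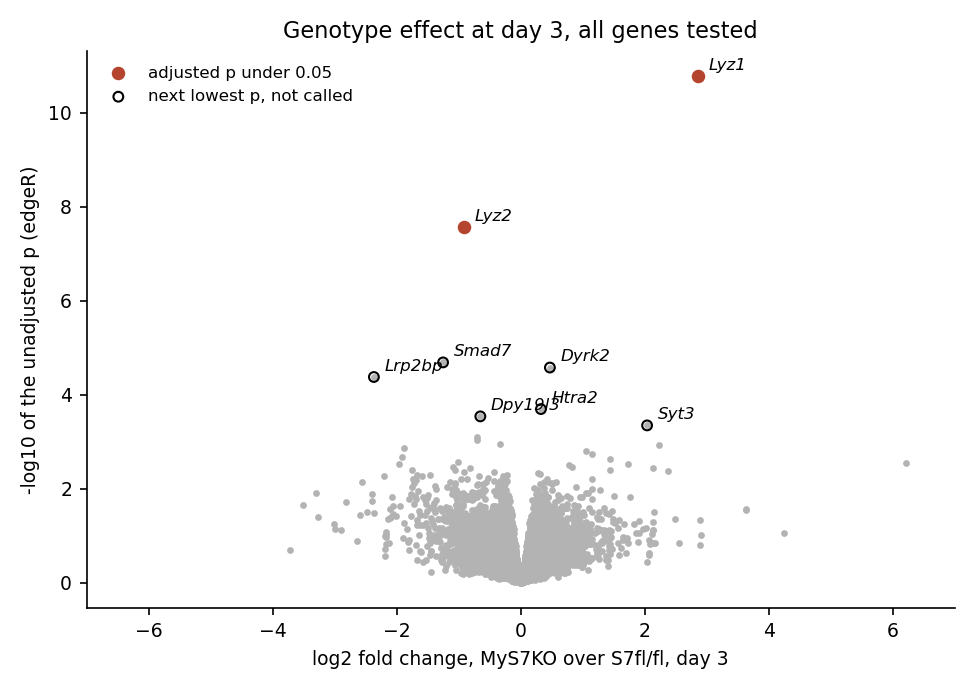
Each point is 1 of the 16545 genes tested, with the log2 fold change of MyS7KO over S7fl/fl at day 3 against -log10 of the unadjusted edgeR p. Lyz1 and Lyz2 (filled red) passed the adjusted p of 0.05, and the next 6 genes by p (open circles), Smad7 and Dyrk2 among them, did not.

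Beyond the lysozymes no gene passed in edgeR, although 594 had an unadjusted p under 0.05 (3.59%), 214 of them higher (1.29%) and 380 lower (2.3%) in MyS7KO. In 93 genes the groups did not overlap in CPM (0.562%), 46 higher (0.278%) and 47 lower (0.284%). The values that follow are those of lowest p among such genes that did not pass. Predicted genes and genes with an average log2 CPM under 1 were left out. Htra2, a serine protease of mitochondria, read 35.8, 37.5, 37.3, 33 and 36.5 CPM in MyS7KO and 28.8, 27.4, 28.9, 27.7 and 30.9 CPM in S7fl/fl (log2 0.33 ± 0.074). Its edgeR adjusted p was 0.563, and DESeq2 alone called it (adjusted p = 0.0351, range over the 23 alternatives 0.0351 to 1). Every MyS7KO value was above the highest S7fl/fl value. Other genes on the higher side were Hmgb2, a chromatin protein of dividing cells (112 to 126 CPM in MyS7KO, 75.8 to 110 CPM in S7fl/fl), Gpr183, an oxysterol receptor that guides migrating immune cells (33.1 to 43.9 CPM in MyS7KO, 22.1 to 33.1 CPM in S7fl/fl), Xrcc6, the Ku70 subunit of DNA end joining (18.2 to 20.8 CPM in MyS7KO, 14.3 to 17 CPM in S7fl/fl), and Gatm, an enzyme of creatine synthesis (96 to 124 CPM in MyS7KO, 66.6 to 94.3 CPM in S7fl/fl). With Lsm8, Ssna1 and Rnaseh2b these had log2 differences of 0.27 to 0.38.

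On the lower side, after Smad7, stood Dpy19l3, a C-mannosyltransferase, with 4.52, 3.59, 3.04, 3.18 and 3.3 CPM in MyS7KO and 4.89, 5.63, 5.44, 6.47 and 5.37 CPM in S7fl/fl (log2 -0.65 ± 0.153, edgeR adjusted p = 0.69). Proz, which encodes the vitamin K-dependent protein Z of the clotting system, read 3.48 to 4.67 CPM in MyS7KO and 5.1 to 8.29 CPM in S7fl/fl. Ednrb, an endothelin receptor listed among genes of resident cardiac macrophages, read 88.3 to 117 CPM in MyS7KO and 120 to 150 CPM in S7fl/fl (log2 -0.35 ± 0.123). Mlxip (MondoA), a sugar-sensing transcription factor, Cdyl, a chromodomain protein, Ppp3cc, a calcineurin catalytic subunit, the zinc finger gene Zfp182 and Gpalpp1 had differences of -0.21 to -0.34. None of these passed (edgeR adjusted p = 0.982 for all but Dpy19l3). Lrp2bp, whose p was next after those of Smad7 and Dyrk2, was near the limit of counting, at 0.0596 to 0.125 CPM in MyS7KO and 0.148 to 0.647 CPM in S7fl/fl.

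The TGF-beta pathway was followed by role through lists of genes, and in the edgeR test of all libraries no member of the 19 functional lists was called. Smad7, a member of the Smad list, passed in some alternatives. Of the 391 tested members of all these lists, 2 were higher and 4 lower in MyS7KO with no overlap of the groups, against 0.278% higher and 0.284% lower of all genes tested. These are Hmgb2 and Pmepa1 on the higher side, and Smad7, Ednrb, cathepsin K (Ctsk) and the chemokine Ccl8 on the lower side. The median log2 difference over all genes tested was -0.00211, with 49.5% above 0 and 3.59% with an unadjusted edgeR p under 0.05. Each list is read against these.

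Ligands, latency proteins and activating integrins (23 tested) had a median of 0.04, and no member had an unadjusted p under 0.05. Tgfb1, the main TGF-beta of macrophages, read 325, 437, 344, 357 and 330 CPM in MyS7KO and 348, 324, 386, 459 and 380 CPM in S7fl/fl, fully overlapping (log2 -0.08 ± 0.122). Inhba, the activin A subunit, read 23.2 to 58.7 CPM in MyS7KO and 26.8 to 126 CPM in S7fl/fl, where replicates 2 and 4 had 112 and 126 CPM. The receptors (13 tested, median -0.03) included 2 with lower unadjusted p under 0.05, both type II activin receptors. Acvr2a read 16.8, 13.1, 10.3, 14.2 and 12.8 CPM in MyS7KO and 17.8, 17, 14, 18.4 and 15.9 CPM in S7fl/fl. MyS7KO replicates 1 and 4 lay within the S7fl/fl range (log2 -0.31 ± 0.111, edgeR adjusted p = 0.982). Acvr2b read 0.795 to 1.86 CPM in MyS7KO and 1.61 to 2.22 CPM in S7fl/fl. The TGF-beta receptors themselves overlapped, with log2 differences of 0.07 ± 0.108 for Tgfbr1 and -0.03 ± 0.0895 for Tgfbr2.

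Of 8 Smads 4 had an unadjusted p under 0.05 (50%), against 3.59% of all genes tested. All 4 were lower in MyS7KO, namely Smad7 (the targeted gene), Smad3, Smad4 and Smad9. Smad3, which carries the TGF-beta signal, read 46.8, 66.3, 37.9, 44.5 and 40.8 CPM in MyS7KO and 52.1, 62, 69.2, 73.7 and 43.9 CPM in S7fl/fl. The groups overlapped, with MyS7KO replicate 2 high and S7fl/fl replicate 5 low for their groups (log2 -0.35 ± 0.164, edgeR adjusted p = 0.982). Smad4, the shared partner, read 55.3 to 63.2 CPM in MyS7KO and 56.3 to 73.9 CPM in S7fl/fl (log2 -0.15 ± 0.0698). Smad9 was at 0 to 0.119 CPM in MyS7KO and 0 to 0.583 CPM in S7fl/fl, too low for a fold. Smad6, the other inhibitory Smad, read 5.77 to 8.03 CPM in MyS7KO and 5.84 to 10.1 CPM in S7fl/fl (log2 -0.09 ± 0.243). The median of the 7 Smads other than Smad7 was -0.09.

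Among 17 Smad regulators (median -0.02) Pmepa1 was the only one with a higher unadjusted p under 0.05. Pmepa1 is induced by TGF-beta and binds receptor-activated Smads away from the receptor. It read 51.5, 55.2, 70.2, 48.9 and 51.9 CPM in MyS7KO and 41.9, 41.8, 46.6, 36.7 and 38.5 CPM in S7fl/fl. The lowest MyS7KO library lay above the highest S7fl/fl library (log2 0.43 ± 0.147, edgeR adjusted p = 0.982). Rnf111 (Arkadia), a ubiquitin ligase that degrades Smad7 and the repressor Skil, had the only lower p under 0.05, at 48.2 to 61.7 CPM in MyS7KO and 51.8 to 73.7 CPM in S7fl/fl. Skil (log2 0.05 ± 0.0994) and Smurf2 (-0.12 ± 0.0915) overlapped.

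Response genes of TGF-beta and BMP (22 tested) had a median of 0.05, and 1 member had a lower p under 0.05. That member is Thbs1, thrombospondin 1, a matricellular protein that activates latent TGF-beta. It read 9090, 7170, 5830, 8510 and 5820 CPM in MyS7KO and 8740, 12500, 8950, 11300 and 7800 CPM in S7fl/fl. Replicates 2 and 4 of S7fl/fl stood above all MyS7KO libraries (log2 -0.44 ± 0.198, edgeR adjusted p = 0.982). Tgfbi was at 1880 to 2310 CPM in MyS7KO and 1860 to 2640 CPM in S7fl/fl (log2 -0.05 ± 0.11), with an interval of -0.28 to 0.18. Spp1 (osteopontin), abundant in infarct macrophages, read 10200 to 12500 CPM in MyS7KO and 8500 to 14700 CPM in S7fl/fl (log2 0.04 ± 0.207). Fn1, fibronectin, was at 2870 to 6120 CPM in MyS7KO and 3520 to 7470 CPM in S7fl/fl (log2 -0.36 ± 0.268).

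Matrix genes (28 tested) had a median of 0.16 with 23 above 0, and their members with the lowest p pointed the other way. Vcan, the proteoglycan versican made by monocytes, read 137, 44, 53.3, 73.8 and 51.9 CPM in MyS7KO and 115, 237, 85.5, 178 and 77.7 CPM in S7fl/fl (log2 -0.94 ± 0.357, edgeR adjusted p = 0.982). MyS7KO replicate 1 and S7fl/fl replicates 2 and 4 were the high ones. The matrix median was -0.10 without MyS7KO replicate 1, -0.03 without S7fl/fl replicate 4 and 0.39 without S7fl/fl replicate 1. Fibroblast markers were read at a summed 1010 to 1750 CPM in MyS7KO and 765 to 1600 CPM in S7fl/fl, highest in MyS7KO replicate 1 and S7fl/fl replicate 1, and their part in the matrix values was not tested. In such bulk samples fewer cells of a type and less RNA per cell cannot be told apart.

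Matrix proteases and inhibitors (24 tested, median -0.07) held no unadjusted p under 0.05 in the edgeR fit of all 23 libraries. Ctsk, a collagen-degrading cathepsin, read 18.7 to 23.7 CPM in MyS7KO and 28.2 to 30.5 CPM in S7fl/fl without overlap (log2 -0.47 ± 0.248, edgeR adjusted p = 0.982). With edgeR fitted to the day 3 libraries alone, the adjusted p of Ctsk was 0.141. The standard error above comes from the fit of all groups, which include MyS7KO at day 7 with 67.5 ± 44.9 CPM (SD, n = 4). Mmp9, the gelatinase B of neutrophils and macrophages, read 37.7, 63.2, 24.4, 39.1 and 14.9 CPM in MyS7KO and 57.7, 132, 51, 93.6 and 47.9 CPM in S7fl/fl (log2 -1.09 ± 0.645, edgeR adjusted p = 0.982). In both groups replicate 2 was the highest. Mmp14, a membrane-bound collagenase, and Timp1, a metalloproteinase inhibitor, overlapped (log2 0.09 ± 0.132 and -0.19 ± 0.23).

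**Figure D3:**
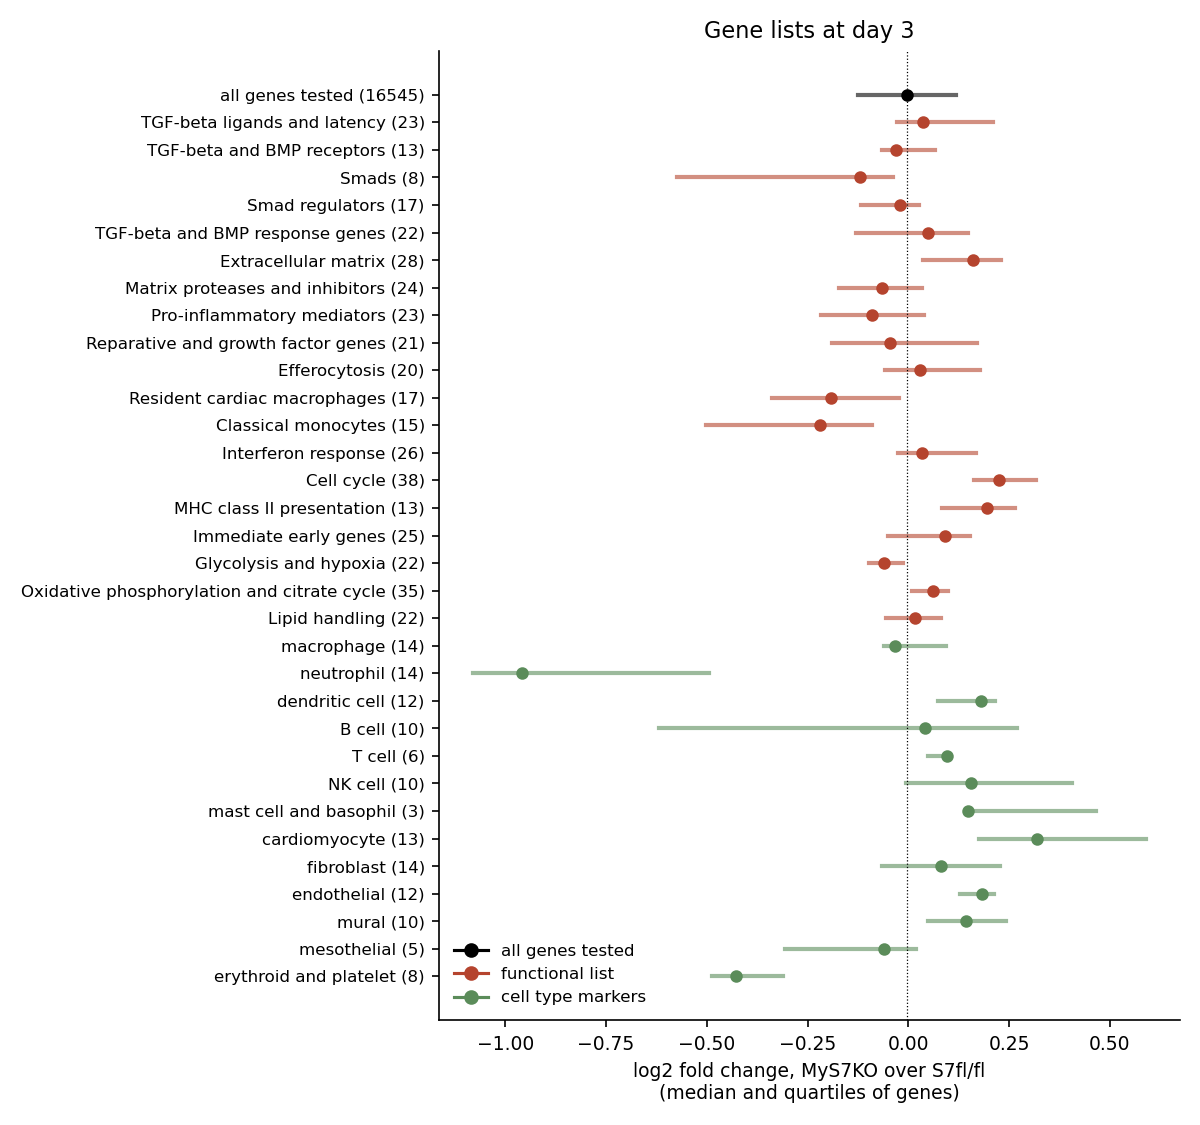
Median (point) and quartiles (line) of the day 3 log2 fold change over the tested members of each list, with the number tested in brackets. Most lists lie near the all-gene median of -0.00211. Farther out are neutrophil markers (-0.96), erythroid and platelet markers (-0.43), cardiomyocyte markers (0.32), cell cycle genes (0.23) and classical monocyte genes (-0.22). No member of any list was called in the edgeR test of all libraries.

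Inflammatory mediators (23 tested, median -0.09) held no p under 0.05. Il1b read 1700 to 2460 CPM in MyS7KO and 1520 to 3150 CPM in S7fl/fl (log2 -0.05 ± 0.207), and Tnf 215 to 282 CPM in MyS7KO and 191 to 355 CPM in S7fl/fl (log2 -0.09 ± 0.164). Ccl8, a monocyte chemokine, read 33.2, 44.1, 46, 32.5 and 33.1 CPM in MyS7KO and 52.1, 50.1, 65.7, 49.8 and 59.5 CPM in S7fl/fl. The groups did not overlap (log2 -0.55 ± 0.273, edgeR adjusted p = 0.982). The monocyte chemokines Ccl2 and Ccl7 overlapped, with log2 differences of -0.13 ± 0.18 and -0.09 ± 0.205. Interferon response genes (26 tested) had a median of 0.03 and no p under 0.05.

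Reparative genes and growth factors (21 tested, median -0.05) held 3 higher and 1 lower member with p under 0.05. Ccl17, a chemokine for T helper and regulatory T cells, read 1.6 to 2.92 CPM in MyS7KO and 0.988 to 1.71 CPM in S7fl/fl (log2 0.77 ± 0.234, edgeR adjusted p = 0.982). The platelet-derived growth factors Pdgfa and Pdgfb, which act on fibroblasts and mural cells, had log2 differences of 0.39 ± 0.151 and 0.34 ± 0.139. Mrc1, the mannose receptor, read 1040, 838, 818, 844 and 705 CPM in MyS7KO and 1160, 1320, 1160, 842 and 894 CPM in S7fl/fl (log2 -0.34 ± 0.154). Only S7fl/fl replicates 4 and 5 lay within the MyS7KO range. Arg1, arginase 1, read 786, 597, 734, 655 and 431 CPM in MyS7KO and 389, 1520, 535, 1330 and 704 CPM in S7fl/fl. Replicates 2 and 4 of S7fl/fl stood above every other library, and the difference was close in size to its standard error (log2 -0.48 ± 0.426). Il10 (log2 0.19 ± 0.246) and Vegfa (-0.17 ± 0.179) overlapped, as did the markers of lipid-associated macrophages Trem2 (0.17 ± 0.135) and Gpnmb (0.12 ± 0.222).

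Efferocytosis genes (20 tested, median 0.03) held 2 higher members with p under 0.05. Axl, a receptor kinase for phosphatidylserine-bound Gas6, read 146, 203, 146, 149 and 173 CPM in MyS7KO and 134, 130, 128, 152 and 118 CPM in S7fl/fl (log2 0.31 ± 0.106, edgeR adjusted p = 0.982). S7fl/fl replicate 4 reached into the MyS7KO range. Mfge8, a bridging protein to integrins, read 60.3 to 143 CPM in MyS7KO and 42.9 to 84.5 CPM in S7fl/fl. Mertk, the main efferocytosis receptor of cardiac macrophages, overlapped (log2 -0.05 ± 0.117).

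Genes of resident cardiac macrophages (17 tested) had a median of -0.19, with 3 above 0 and 2 lower members (Ednrb and Mrc1) with p under 0.05. Lyve1, Timd4 and Folr2 had no p under 0.05, with log2 differences of -0.19 ± 0.398, -0.02 ± 0.32 and -0.20 ± 0.105. The median was -0.07 without S7fl/fl replicate 2. Classical monocyte genes (15 tested) had a median of -0.22, and 3 members, Vcan and Ifitm6 among them, were lower with p under 0.05. Ifitm6, an interferon-induced transmembrane protein family gene, read 14.7, 15, 11.1, 13.7 and 12.6 CPM in MyS7KO and 14.8, 29.6, 11, 27.7 and 12.4 CPM in S7fl/fl (log2 -0.50 ± 0.224, edgeR adjusted p = 0.982). The high values were in S7fl/fl replicates 2 and 4, which also had the highest summed levels of the list, 11200 and 11800 CPM, against 5440 to 8890 CPM in MyS7KO. Without S7fl/fl replicate 4 the median was -0.065, and without the 3 libraries of mixed sex signal -0.09. Ccr2, the monocyte chemokine receptor, overlapped (log2 -0.20 ± 0.136).

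Neutrophil markers, against which the sort was made, were at low levels and overlapped between genotypes. Of 18 markers 14 passed the low-count filter, with a median of -0.96, and 2 had an unadjusted p under 0.05. S100a8, an alarmin of neutrophils, read 2.93, 4.88, 0.536, 2.87 and 1.68 CPM in MyS7KO and 2.37, 11, 2.35, 7.36 and 2.46 CPM in S7fl/fl (log2 -0.96 ± 0.584, edgeR adjusted p = 0.982). S7fl/fl replicates 2 and 4 were again the high libraries. The summed markers ran from 142 to 238 CPM in MyS7KO and from 200 to 345 CPM in S7fl/fl, with 345 and 340 CPM in S7fl/fl replicates 2 and 4. In these 2 libraries Mmp9 (132 and 93.6 CPM) and Mmp8 (67.7 and 88.8 CPM) made up much of the sum. Both are also counted among the matrix proteases. The median was -0.57 without replicate 2, -0.56 without replicate 4 and -0.67 without the 3 libraries of mixed sex signal. The part of these cells in the values of Mmp9, Il1b and other genes they share with macrophages was not tested.

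Cell cycle genes had a small difference of 1 sign. All 38 members were above 0, with a median of 0.23, and 2 had an unadjusted p under 0.05, Hmgb2 and the replication factor Cdc45. Top2a, a topoisomerase of dividing cells, read 148, 131, 159, 149 and 167 CPM in MyS7KO and 161, 122, 148, 65.8 and 100 CPM in S7fl/fl (log2 0.34 ± 0.179, edgeR adjusted p = 0.982). S7fl/fl replicate 4 was the lowest library, and replicates 1 and 3 lay within the MyS7KO range. Mki67, the proliferation antigen, read 151 to 216 CPM in MyS7KO and 88 to 218 CPM in S7fl/fl (log2 0.21 ± 0.196). The summed level was 2380 to 2700 CPM in MyS7KO and 1460 to 2610 CPM in S7fl/fl, with replicate 4 lowest. Without that library the median was 0.10, and without the 3 libraries of mixed sex signal 0.11. Genes of a division programme vary together within a library, so their common sign is not 38 independent observations.

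Genes of MHC class II presentation (13 tested, median 0.19, 11 above 0) held 2 higher members with p under 0.05. H2-Eb1, the beta chain of I-E, read 1040, 1450, 1300, 1090 and 1430 CPM in MyS7KO and 982, 1130, 1030, 911 and 1130 CPM in S7fl/fl (log2 0.29 ± 0.124, edgeR adjusted p = 0.982). MyS7KO replicates 1 and 4 lay within the S7fl/fl range. H2-Oa, a subunit of the peptide-loading regulator H2-O, was the other (log2 0.50 ± 0.172). H2-Aa, the alpha chain of I-A, read 1000 to 1500 CPM in MyS7KO and 938 to 1220 CPM in S7fl/fl (log2 0.27 ± 0.138). Dendritic cell markers, whose cells share these genes, had a median of 0.18 with summed levels of 466 to 661 CPM in MyS7KO and 430 to 593 CPM in S7fl/fl, and their part was not tested. Without the libraries of mixed sex signal the class II median was 0.09.

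Immediate early and heat shock genes (25 tested, median 0.09) held 3 higher members with p under 0.05, the chaperones Hspa1a and Hspa1b and the transcription factor Atf3. Hspa1b, the inducible Hsp70, read 179 to 354 CPM in MyS7KO and 128 to 231 CPM in S7fl/fl (log2 0.64 ± 0.282, edgeR adjusted p = 0.982). Hspa1a and Hspa1b are near-identical copies, and the division of reads between them is uncertain. Glycolysis and hypoxia genes (22 tested, median -0.06), oxidative phosphorylation and citrate cycle genes (35 tested, median 0.06) and lipid handling genes (22 tested, median 0.02) held no p under 0.05. Apoe, a lipid carrier of macrophages, read 10300 to 13600 CPM in MyS7KO and 9240 to 11500 CPM in S7fl/fl (log2 0.25 ± 0.128).

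**Figure D4:**
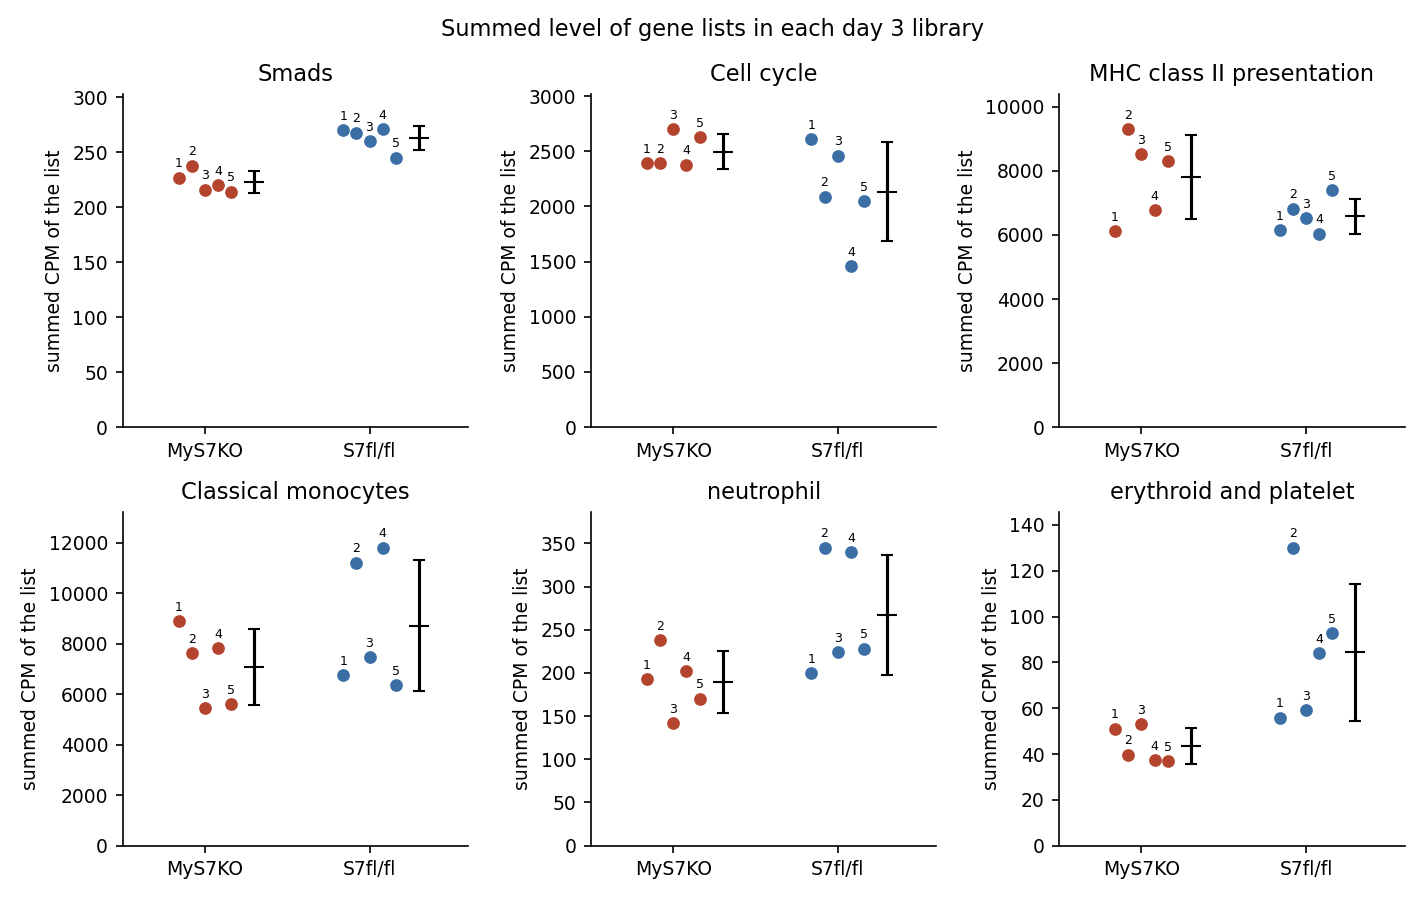
Summed CPM of 6 lists in each day 3 library, MyS7KO left and S7fl/fl right, with replicate numbers and mean ± SD of 5 libraries. S7fl/fl replicates 2 and 4 are the highest for monocyte genes (11200 and 11800 CPM) and neutrophil markers (345 and 340 CPM), and replicate 4 is the lowest for cell cycle genes (1460 CPM). The neutrophil sum includes Mmp8 and Mmp9, which are also counted among the matrix proteases.

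Transcripts of other cell types were read at low to moderate levels in both genotypes. Summed cardiomyocyte markers were at 17.9 to 36.8 CPM in MyS7KO and 14 to 32.1 CPM in S7fl/fl (median log2 0.32), and endothelial markers at 629 to 1100 CPM in MyS7KO and 455 to 1060 CPM in S7fl/fl (median 0.18). With 1 library left out the cardiomyocyte median ran from 0.19 to 0.54 and the endothelial median from 0.03 to 0.32, each lowest without S7fl/fl replicate 4. T, B and NK cell markers were at 9 to 77.3 CPM in MyS7KO and 8.82 to 59.9 CPM in S7fl/fl. Markers of red cells and platelets did not overlap as a sum, nor did the Smads with Smad7 included. The Smad sum was 214 to 238 CPM in MyS7KO and 245 to 271 CPM in S7fl/fl. For red cells and platelets the sum was 36.9 to 52.9 CPM in MyS7KO and 55.8 to 130 CPM in S7fl/fl. Most of this sum is Ppbp, a platelet chemokine, with 45.1, 36.4, 44.9, 33.2 and 30.3 CPM in MyS7KO and 44.8, 126, 54.7, 79.7 and 84.5 CPM in S7fl/fl (log2 -1.03 ± 0.397, edgeR adjusted p = 0.982). Its groups overlapped only at S7fl/fl replicate 1. The median of the red cell and platelet list was -0.43, and it ran from -0.61 to 0.03 with 1 library left out. The other markers tested there had no p under 0.05, among them the platelet genes Itga2b, at 1.18 to 2.09 CPM in MyS7KO and 1.28 to 1.93 CPM in S7fl/fl, and Gp9, at 0.248 to 0.666 CPM in MyS7KO and 0.343 to 1.28 CPM in S7fl/fl.

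The genotype effect was set beside that at the other times by testing the difference itself. In edgeR no gene differed in its genotype effect between day 3 and baseline (0 of 16545, 0%, with 741 unadjusted p under 0.05, 4.48%), nor between day 3 and day 7 (0 of 16545, 0%, with 1726 unadjusted p under 0.05, 10.4%). For the first DESeq2 and limma-voom also called 0. For the second limma-voom called 0 and DESeq2 6, (0.0363%). At day 7 Xist marked each of the 4 MyS7KO libraries and Y-linked transcripts each of the 3 S7fl/fl libraries, so sex and genotype cannot be told apart there. Lyz1 and Lyz2 were also the 2 genes called at baseline (0.0121%, with 2.27% at an unadjusted p under 0.05), and they were 2 of the 3 called at day 7 (0.0181%, with 13.1% at an unadjusted p under 0.05). For Lyz1 the log2 difference was 1.89 ± 0.257 at baseline, 2.86 ± 0.215 at day 3 and 2.69 ± 0.263 at day 7, and for Lyz2 it was -0.90 ± 0.145, -0.92 ± 0.112 and -0.97 ± 0.133. The mean of Smad7 was 38 ± 15.9 CPM in MyS7KO and 56.4 ± 4.25 CPM in S7fl/fl at baseline (SD, n = 3 each), and 23.4 ± 7.66 CPM in MyS7KO (n = 4) and 62.5 ± 6.76 CPM in S7fl/fl (n = 3) at day 7. Its log2 difference was -0.57 ± 0.282 at baseline, -1.25 ± 0.227 at day 3 and -1.42 ± 0.264 at day 7, and day 3 was not shown to differ from either (edgeR adjusted p = 0.878 against baseline and 0.875 against day 7).

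The lowest p-values of these differences belonged to Prr14l, Proz and Wdr53 against baseline, and to Vrk1, a chromatin kinase, Prkg1, a cGMP-dependent kinase, and Htra2 against day 7. Prr14l had log2 genotype differences of 0.26 ± 0.113 at baseline, -0.33 ± 0.0888 at day 3 and 0.11 ± 0.107 at day 7 (day 3 minus baseline -0.59 ± 0.144, edgeR adjusted p = 0.878). Htra2 had -0.06 ± 0.0957 at baseline, 0.33 ± 0.074 at day 3 and -0.22 ± 0.0891 at day 7. Pmepa1 had -0.24 ± 0.19 at baseline, 0.43 ± 0.147 at day 3 and -0.40 ± 0.173 at day 7, a change of sign that passed at neither step.

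**Figure D5:**
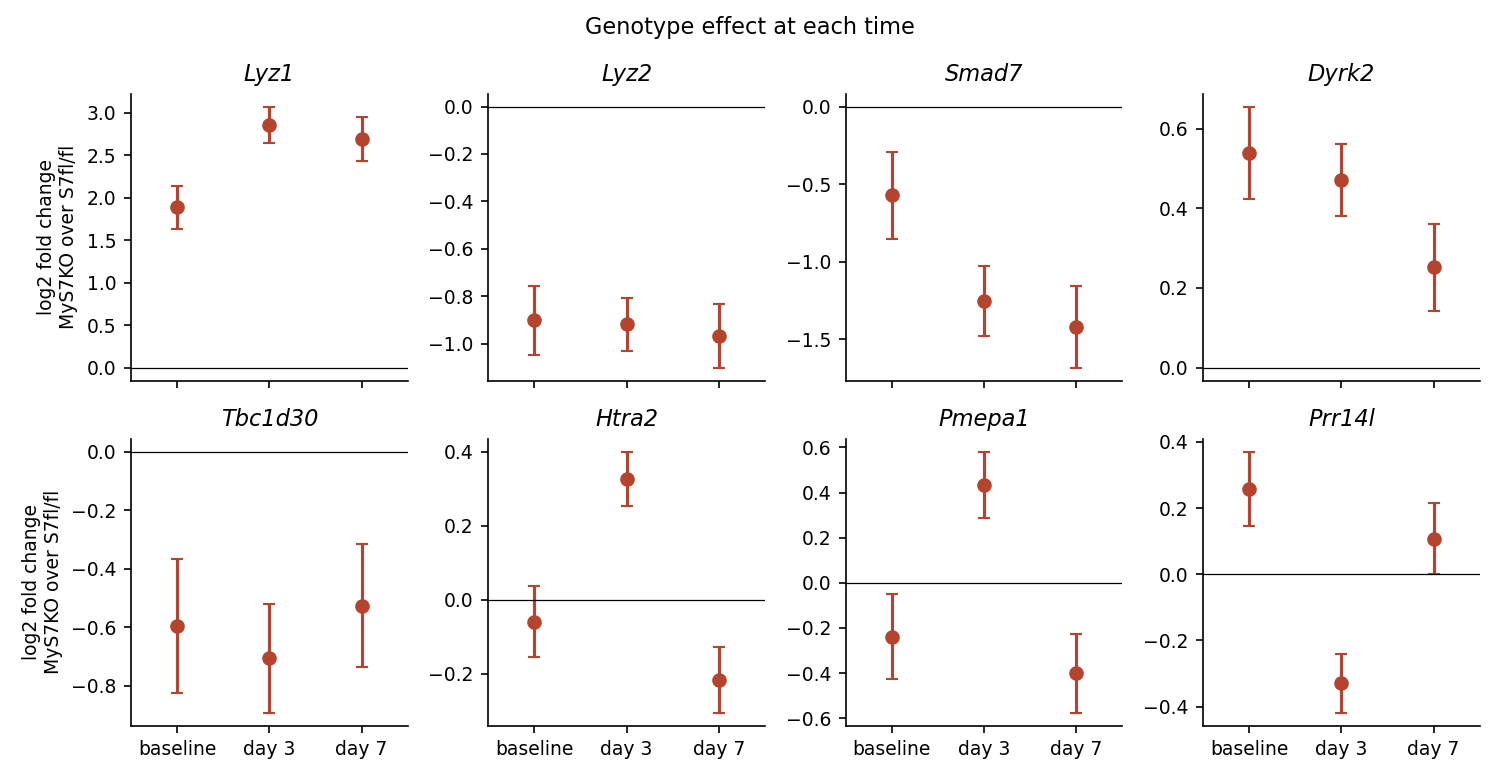
Log2 fold change of MyS7KO over S7fl/fl (point) and its standard error (bar) for 8 genes at baseline, day 3 and day 7, each panel on its own scale. Lyz1, Lyz2, Smad7, Dyrk2 and Tbc1d30 keep their sign at the 3 times, and Htra2, Pmepa1 and Prr14l have another sign at day 3 than at day 7.

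Without the 3 libraries of mixed sex signal no named gene with an unadjusted edgeR p under 0.05 changed sign, but some differences were smaller by over 1.5 times. These were Pmepa1 (log2 0.28), H2-Oa (0.23), H2-Eb1 (0.17), Pdgfa (0.24), Vcan (-0.55), Thbs1 (-0.27), Acvr2a (-0.14), Rnf111 (-0.12) and Ifitm6 (-0.30).

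The libraries bound most effects from above. The 95% interval of the log2 difference lay within 2-fold either way for 12352 of 16545 genes (74.7%), and within 1.5-fold for 56%. For the 5330 genes whose log2 CPM averaged 5 or more, the interval lay within 2-fold for 98% and within 1.5-fold for 92.4%. S100a8 and Mmp9 are examples of genes with wide intervals, -2.18 to 0.27 and -2.45 to 0.27, which hold both no change and changes over 2-fold. The spread behind these intervals is estimated over all 23 libraries. For Mmp9 these include MyS7KO at day 7 with 59.9 ± 79.1 CPM (SD, n = 4).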

How the data were processed

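Poly(A) RNA of sorted cardiac macrophages was measured in 23 libraries of 6 groups by genotype and time, of which the 10 day 3 libraries are described. The deposited table holds the authors' counts of reads per gene, whole numbers used as they stand, and a second table holds the authors' FPKM. The submitters' processing notes list HTSeq 0.6.1, TopHat2 2.0.9 and Cufflinks 2.1.1, and the builds GRCm38.p6 and mm10, giving no roles. Whether counting used strand is not given in the sources used here, so reads of antisense or overlapping genes cannot be told apart.

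The test was edgeR 4.0.16 in R 4.3.3, with limma 3.58.1 as an alternative. Low counts were removed by filterByExpr, libraries were scaled by TMM, and a robust quasi-likelihood model of all 23 libraries took each group as a coefficient, with two-sided p-values with Benjamini-Hochberg adjustment over 16545 genes, and calls at an adjusted p under 0.05. CPM use TMM-scaled library totals. Standard errors are the log2 difference over the root of the F statistic, and 95% intervals use the t quantile. Per-gene precision follows the totals of 15479402 to 23884938 counts in the day 3 libraries. The limits use a spread estimated over all 23 libraries.

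Alternatives were RLE scaling, no filter, DESeq2 1.42.0, limma-voom with quality weights, day 3 libraries only, log2 FPKM with a pseudocount of 1 or 0.1 under limma-trend, a replicate block, sex from Xist and 4 Y-linked genes (as a covariate and within each sex), removal of 3 libraries of mixed sex signal, and each library left out in turn. Mixed signal is the level of the other sex's marker in percent of its mean in libraries of that sex. The tests were run on simulated counts, drawn for each gene separately from the means and spread of the edgeR fit. Such counts cannot show how the tests behave where genes vary together within a library. No pair of replicates was a duplicate: chi-square over its degrees of freedom was 8.73 to 50.

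Named genes were Smad7, Lyz1 and Lyz2, the called genes, the 10 higher and 10 lower uncalled genes of lowest p with groups that do not overlap and an average log2 CPM of at least 1, a fixed set of macrophage and TGF-beta genes, the 2 members of lowest p per functional list and the 3 genes of lowest p per difference between times. Predicted genes, recognised by their names, were left out of the 10 higher and 10 lower. Inhba, Tbk1, Pdgfb, Ppbp, Itga2b, Gp9, Mertk, Atf3 and Lrp2bp were chosen after their values were seen. The members, the 33 lists and the tests were chosen with earlier results of these data known, so no p is given over a list. Gene positions follow GENCODE M21, which matched the coordinates of 98.3% of the listed genes. Results for some items are not reported here.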

Additional observations from a re-analysis of the deposited data

Results flagged for a closer look

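Of 204 groups of 5 day 3 libraries, formed by the named genes in each genotype, 10 (4.9%) held a library far from the other 4. Chance flags about 1 in 20 such groups. In MyS7KO, replicate 2 was high for Gatm (124 CPM, the others 96 to 103 CPM) and for Tgfb1 (437 CPM, the others 325 to 357 CPM), replicate 3 was low for Cxcl2 (2430 CPM, the others 2980 to 3140 CPM), and replicate 1 was low for Prkg1 (0.298 CPM, the others 0.539 to 0.596 CPM). In S7fl/fl, replicate 2 was high for Nos2 (17.1 CPM, the others 7.45 to 9.54 CPM), and replicate 5 was high for Il10 (303 CPM, the others 170 to 200 CPM). The remaining 4 flags fall on S7fl/fl replicate 4, the library with 8.15% mixed sex signal. It was low for Gpr183 (22.1 CPM, the others 31.4 to 33.1 CPM) and high for the monocyte gene Ly6c2 (117 CPM, the others 33.6 to 43.9 CPM). The neutrophil gene Retnlg was also high there (1.02 CPM, the others 0.0571 to 0.269 CPM). The flag for the neutrophil gene Ly6g (0.0635 CPM, the others at 0) lies at the limit of counting, and Ly6g did not pass the low-count filter.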

How the results depend on the processing

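The count of 2 called genes at day 3 was 2 in each alternative with another scaling, no filter, FPKM or sex as a covariate, and 3 with the day 3 libraries alone. It was 5 with DESeq2 (Lyz1, Lyz2, Smad7, Dyrk2, Htra2), 4 with limma-voom (the same without Htra2), 1 without the libraries of mixed sex signal, 1 within the libraries that carry Xist and 1 within those that carry Y-linked transcripts, each time Lyz1. Leaving out 1 library gave 2 to 4, with 4 (Smad7 and Dyrk2 added) without MyS7KO replicate 1 and 3 (Lrp2bp added) without S7fl/fl replicate 1. Smad7 was lower in every alternative run, by 0.90 to 1.54 on the log2 scale. It passed with DESeq2 (-1.23), limma-voom (-1.36) and the day 3 libraries alone (-1.25), and with 1 library left out it ran from -1.39 to -1.15, passing without MyS7KO replicate 1. With edgeR and 1 library left out, 0 to 1 members of the functional lists were called, the 1 being Smad7 without MyS7KO replicate 1. For the difference of the genotype effect between day 3 and day 7 DESeq2 called 6 genes, 2 of them Y-linked, and the other alternatives 0. The cause of these changes was not tested.

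The shared replicate numbers do not pair the libraries: residual correlations of same-numbered libraries were 0.19, -0.06, -0.04, 0.11 and 0.09, and 3 of 10 libraries correlated best with the library of their own number. With the replicate block the count was 4, Smad7 stood at -1.28 (edgeR adjusted p = 0.00398), and Mmp9 was called at -1.13 (edgeR adjusted p = 0.00783).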
